A study of Homo sapiens with 4 samples.

Results

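Replication-dependent histone genes were taken as every gene whose symbol in the array annotation was H2AC, H2BC, H3C or H4C followed by digits only, or H1-1 to H1-5. That gave 60 of the 21357 genes listed for the array, 55 of them core histone genes and 5 linker histone genes, reported by 66 of 54675 probe sets (61 core, 5 linker). Another 8 genes in RefSeq have such a symbol and were not listed for this array, and they were not analysed here. The cells were MM.1S, an established multiple myeloma line, exposed to the vehicle DMSO (control, with no time given) or to 250 nM MLN4924 for 8, 16 or 24 h, with 1 array per group. MLN4924 inhibits the enzyme that activates NEDD8, a ubiquitin-like protein that cullin-RING ubiquitin ligases need in order to work. Nothing in the labels limits the model beyond its being a single cell line. With 1 array per group no test was possible, no spread between cultures is known, and every difference below is that of 1 array from another.

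Core histones H2A, H2B, H3 and H4 form the protein spool around which DNA is wrapped, and the linker histone H1 sits where the DNA enters and leaves it. The genes lie in clusters in many near-identical copies and are transcribed together in S phase, when new DNA has to be packaged. Their main mRNAs have no introns and end in a stem-loop, held by the protein SLBP, in place of a poly(A) tail, and they are destroyed when DNA synthesis stops. A smaller set of the genes, chiefly of the H2A and H2B families, can also make transcripts with a poly(A) tail in cells that leave the cycle. The Affymetrix cRNA protocol that the labels name starts from an oligo(dT) primer, which copies tailed RNA, so how much of each signal came from stem-loop mRNA is not known here.

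At 24 h among measured probe sets, H2BC12 and H2AC6 had the largest positive differences. The largest negative ones were those of H1-2 and of a probe set listing both H2AC18 and H2AC19. The promoters of H2BC12, H2AC6, H2AC18 and H1-2 are shown for that reason. Each is the 250 bases before the annotated start in RefSeq (GRCh38.p14), 5′ to 3′ on the gene's own strand. H2BC12 is at chr6:27146859-27147108 on the minus strand, H2AC6 at chr6:26123922-26124171 on the plus strand, H2AC18 at chr1:149842751-149843000 on the minus strand and H1-2 at chr6:26056471-26056720 on the minus strand. Capitals mark, on either strand, CCAAT, the octamer ATTTGCAT, TATAAA and the H1 box AAACACA, and some marks overlap.
H2BC12: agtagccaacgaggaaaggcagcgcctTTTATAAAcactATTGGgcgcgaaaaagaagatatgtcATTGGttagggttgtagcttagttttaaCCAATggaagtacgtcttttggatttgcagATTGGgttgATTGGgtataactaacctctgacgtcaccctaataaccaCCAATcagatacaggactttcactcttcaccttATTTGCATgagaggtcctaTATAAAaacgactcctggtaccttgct
H2AC6: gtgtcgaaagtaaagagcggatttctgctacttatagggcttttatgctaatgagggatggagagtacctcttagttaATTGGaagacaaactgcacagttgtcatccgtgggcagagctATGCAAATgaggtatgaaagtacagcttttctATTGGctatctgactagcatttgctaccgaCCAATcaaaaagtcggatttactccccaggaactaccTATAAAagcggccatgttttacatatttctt
H2AC18: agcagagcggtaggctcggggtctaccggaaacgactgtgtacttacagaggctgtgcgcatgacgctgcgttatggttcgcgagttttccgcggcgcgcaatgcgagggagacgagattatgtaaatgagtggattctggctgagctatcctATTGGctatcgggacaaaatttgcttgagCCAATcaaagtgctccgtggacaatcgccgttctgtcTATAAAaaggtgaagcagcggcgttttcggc
H1-2: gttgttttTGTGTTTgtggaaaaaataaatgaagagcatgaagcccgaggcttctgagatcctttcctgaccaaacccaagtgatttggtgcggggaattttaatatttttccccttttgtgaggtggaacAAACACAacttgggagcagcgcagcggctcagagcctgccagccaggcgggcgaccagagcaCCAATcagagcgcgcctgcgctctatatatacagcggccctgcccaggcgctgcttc

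These matches are letters in a window and not shown to be bound sites. CCAAT, the letters of the common CCAAT box, stood in the promoters of 45 of the 55 members with a promoter in the table (81.8%, against 37% of 27305 genes). The octamer, the letters that OCT1 reads in H2B promoters, stood in 13 of 16 H2B and 8 of 13 H2A promoters but in 1 of 8 H3, 0 of 13 H4 and 0 of 5 H1 promoters, against 2.03% of all genes. The H1 box letters stood in 5 of 5 H1 promoters and in no core histone promoter, against 5.95% of all genes, and TATAAA in 37 of 55 members against 13%. The H2AC6 window is also the promoter of H2BC4, which is transcribed the other way from a start 246 bases off. Such head-to-head pairs of an H2A and an H2B gene with starts under 500 bases apart numbered 8 among those 55 members. The other members, H2AC12 among them, had no promoter there and could not be searched for a partner.

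Few members were bright enough to follow. A probe set counted as measured when its mean log2 intensity over the 4 arrays was above the median of all probe sets, a level of 93.9, and values under 48.4 were raised to that floor. Of the 66 probe sets 19 were measured, 16 core and 3 linker, and 16 lay at the floor on all 4 arrays. No H3 probe set was measured. Several genes shared 20 of the 66 probe sets, and 13 genes had a measured probe set of their own. Copies of a family differ by few bases, so a probe set can also take up RNA of relatives that it does not list, above all those named _x_at. The pooled SD between measured probe sets of the same gene, over 5719 genes, stood in for technical spread and was 0.16, 0.19 and 0.18 (log2) at 8, 16 and 24 h.

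In outline, 15 of 19 measured histone probe sets were slightly below control at 8 h. At 24 h all 7 measured H2B probe sets were above control. Of these, H2BC14 (0.16) and 222067_x_at of H2BC5 (0.12) lay within the technical spread, and several others were of the _x_at kind. H2BC14 passed the filter only through its treated arrays, where it was higher, so its place in the 7 was set by the filter. The linkers H1-2 and H1-3 were below control and H1-1 was 0.13 above it, while H2A and H4 were mixed. At 8 h no measured member differed from control by more than 2 of the pooled SDs, against 12.4% of the 27337 measured probe sets. At 16 h 6 of 19 did (15.9% of all), and at 24 h 9 of 19 (16.3% of all). Both counts include H2AC6, which passed the filter only through its 16 and 24 h arrays, where it was high. At 24 h the median of the 16 core probe sets was 0.11 and that of the 3 linker probe sets -0.68 (log2), beside 0.01 over all measured probe sets.

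**Figure D1:**
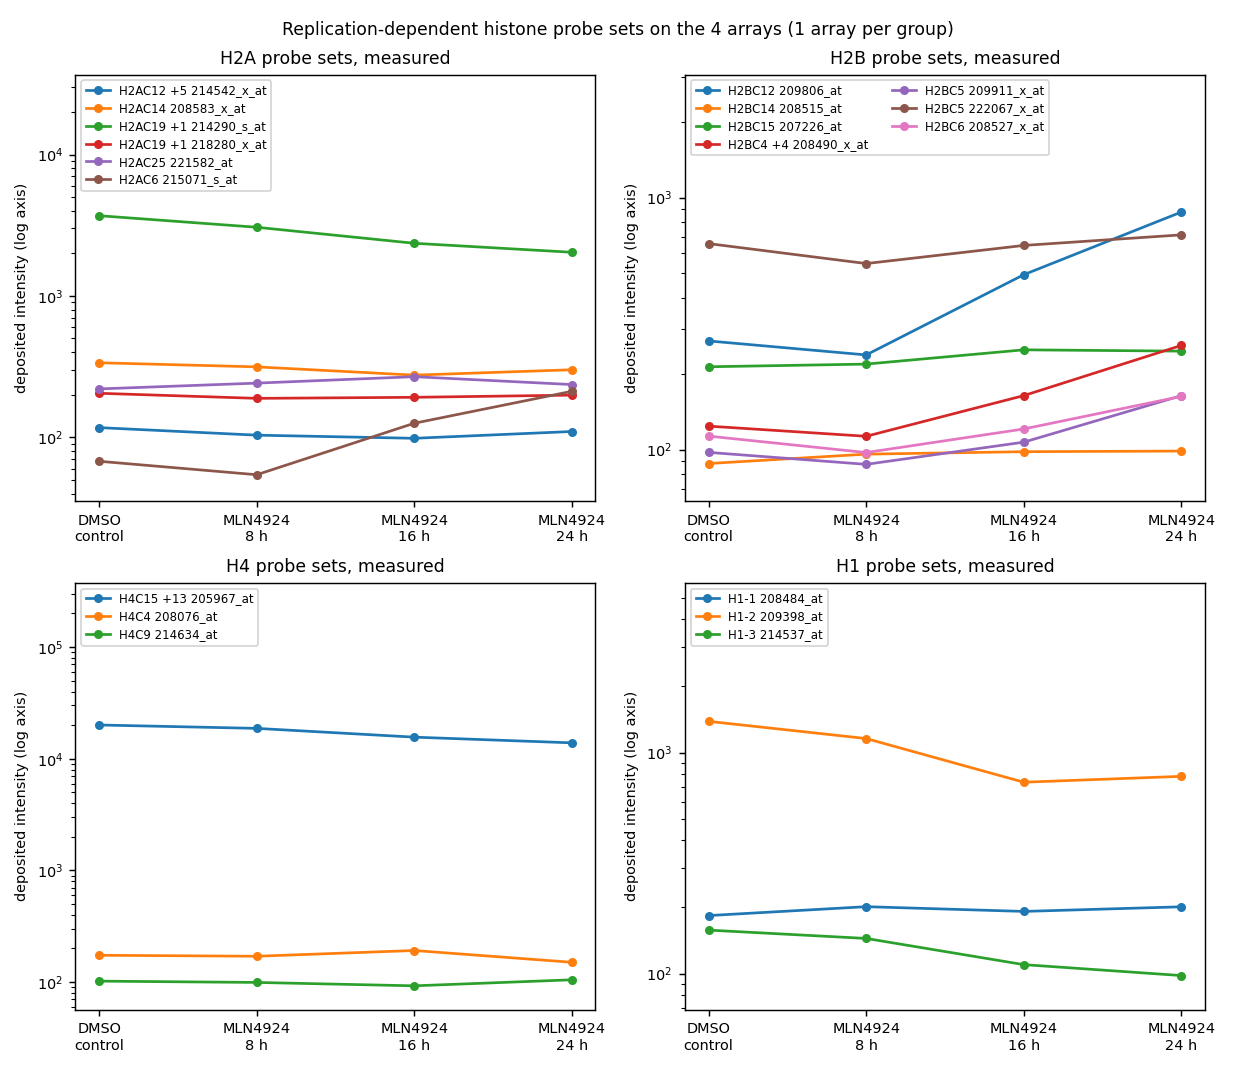
Deposited intensity (log axis) of the 19 measured histone probe sets on the control array and after 8, 16 and 24 h of MLN4924, in panels by family, where a point is 1 array and "+4" counts further genes listed by the probe set. H2BC12 ended at 876.4 from a control level of 269.8, while the H1-2 line ended at 780.3 from 1384.

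Among H2B genes the largest difference was that of H2BC12. It had intensities of 269.8 in control and then 237.4, 494.3 and 876.4 at 8, 16 and 24 h. Its level was lowest at 8 h and highest at 24 h, 3.25-fold over control (log2 1.70), and 1.06 (log2) of that lay between 8 and 16 h. Probe set 208490_x_at, which lists H2BC4, H2BC6, H2BC7, H2BC8 and H2BC10 and was designed on a transcript of H2BC7, had 123.8, 112.9, 163.7 and 258.9 on the control, 8 h, 16 h and 24 h arrays, so that it was 2.09-fold over control at 24 h (log2 1.06). Its order over the arrays was that of H2BC12, with the dip at 8 h within the technical spread (-0.13).

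H2BC6 had 113.0, 97.3, 120.7 and 162.5 in the same order, a difference of 0.52 (log2) at 24 h. For H2BC5 the 2 probe sets stood apart in size, 209911_x_at at 97.4, 87.3, 107.0 and 163.6 (0.75 at 24 h) and 222067_x_at at 656.8, 547.2, 645.9 and 711.4 (0.12 at 24 h). Both had their lowest value at 8 h and their highest at 24 h, but the second gives no difference beyond the technical spread at 24 h. The remaining measured H2B genes moved little, H2BC15 with 213.0, 218.3, 248.7 and 245.8 and H2BC14 with 88.0, 95.8, 98.0 and 98.6. At 24 h all 7 measured H2B probe sets were above control (median 0.52), where 52.4% of all measured probe sets were. The 7 include H2BC14, whose control value of 88.0 lay under the filter level of 93.9. It passed only through its treated arrays, so its place in this count was set by the filter. H2BC5, H2BC6 and the shared H2B probe set are all of the _x_at kind, so these counts may hold fewer separate transcripts than probe sets.

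H2A probe sets went both ways. H2AC6, which shares its promoter with H2BC4, had 67.6 in control and then 54.3, 125.6 and 211.4 at 8, 16 and 24 h, 3.13-fold over control at the last time (log2 1.64). Its control and 8 h values lay below the medians of their arrays, where signal and background are hard to separate, and the size of that ratio is uncertain. Its differences from control of -0.32, 0.89 and 1.64 ran beside those of H2BC12, at -0.18, 0.87 and 1.70, although the probe sets list different families. For H2BC4, the probe set listing it alone and 214455_at, designed on its transcript, were at the floor on all arrays.

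H2AC18 and H2AC19, neighbouring copies reported together by 3 probe sets, had the opposite course on 214290_s_at. Its intensities were 3693.6 in control and then 3060.2, 2357.2 and 2036.0 at 8, 16 and 24 h, which was 1.81-fold below control (log2 -0.86). Each array was lower than the one before it in time. The other measured probe set of these copies, 218280_x_at, was designed on a transcript of H2AC18. It read 204.7, 188.5, 191.7 and 198.7 and differed from control by no more than 0.12 in size. The third, 218279_s_at, was not measured, at 56.9 to 62.0. The lower level of H2AC18 and H2AC19 thus rests on 1 of 3 probe sets.

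The other measured H2A genes stayed near control. H2AC14 read 336.6, 314.8, 275.1 and 300.3, and the probe set listing H2AC11, H2AC12, H2AC13, H2AC15, H2AC16 and H2AC17 read 117.0, 103.5, 98.3 and 109.8. H2AC25 read 219.8, 241.5, 268.2 and 236.0, the last 0.10 above control. At 24 h 2 of 6 measured H2A probe sets were above control (52.4% of all measured probe sets), with a median of -0.07. The 2 include H2AC6, whose place was set by the filter. H2AC14 and H2BC14, a head-to-head pair with both genes measured, differed from control by -0.16 and 0.16 at 24 h, each within the technical spread.

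Among H4 probe sets, 205967_at lists 14 H4 genes and was designed on a transcript of H4C3. It had 20069 in control and then 18716, 15618 and 13887 at 8, 16 and 24 h, stepwise lower, to 1.45-fold below control (log2 -0.53). H4C4 read 173.9, 170.5, 191.9 and 150.5, and H4C9 102.0, 99.3, 92.6 and 104.9, with no difference above 0.21 in size. Of the 4 other probe sets with the same 14 genes, none was measured. All 5 of these probe sets were at or below control at each time, 4 below it and 1 at the floor throughout. Among them 207046_at, at the floor on 3 arrays, and 214516_at, above the median of no array, give no firm direction.

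Linker histones were lower in H1-2 and H1-3 and not in H1-1. H1-2 had 1384 in control and then 1157, 734.1 and 780.3 at 8, 16 and 24 h, so that the later arrays were 1.88-fold and 1.77-fold below control (log2 -0.91 and -0.83). H1-3 had 157.3, 144.2, 109.75 and 97.95, lower at each time and -0.68 from control at 24 h. H1-1 had 183.0, 200.7, 191.1 and 200.5, a difference of 0.13 at 24 h. From 8 to 16 h, without use of the control array, H1-2 differed by -0.66 and H1-3 by -0.39.

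The linker list is short, and H1-4 and H1-5 were not measured. H1-4 read 130.6 on the control array and 80.2, 85.3 and 83.2 at 8, 16 and 24 h, a difference of -0.70 already at 8 h, but only the control value was above the median of its array. H1-5 read 79.7, 89.7, 81.9 and 87.8. Over all 5 linker genes 3 were below control at each of the 3 times, and the median at 24 h was -0.65.

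**Figure D2:**
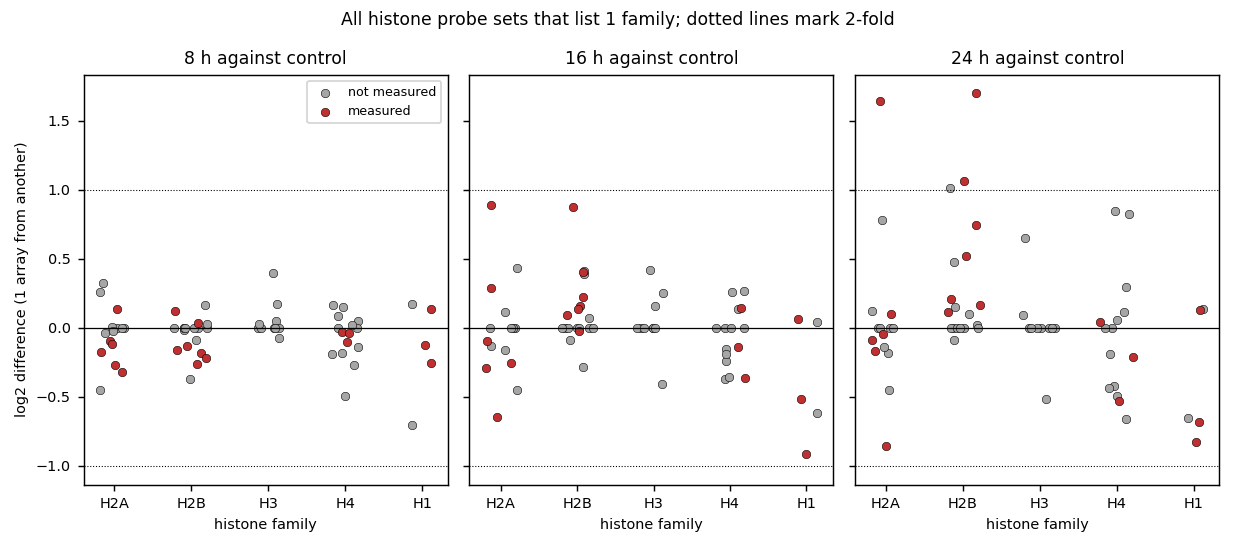
Log2 difference of each histone probe set from control at 8, 16 and 24 h, by family, where red points are measured probe sets, grey points are not, points at 0 include those at the floor, and dotted lines mark 2-fold. At 24 h the H2B points lie mostly above 0, up to 1.70, and 3 of the 5 H1 points lie below it; probe sets listing both H3 and H2A genes are left out.

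Counted at 2-fold, no measured member was called at 8 or 16 h, where 0.117% and 0.322% of all measured probe sets were at least 2-fold higher and 0.11% and 0.351% at least 2-fold lower. At 24 h 3 of the 16 core probe sets (H2BC12, H2AC6 and the shared H2B probe set) were at least 2-fold higher, against 0.439% of all, and no core or linker probe set was 2-fold lower (0.179% of all). H2AC6 passed the filter only through its 16 and 24 h arrays, where it was high, so its place in this count was set by the filter, and without it 2 of 15 were higher. The number higher was 1 of 7, H2BC12, without probe sets named _x_at or _s_at, and 1 of 5 with the filter at the 75th percentile. At a limit of 1.5-fold, a count added after the values were seen, nothing measured passed at 8 h, where 0.783% of all were higher and 0.973% lower. At 16 h 2 core probe sets were higher (1.86% of all), and H1-2 and the H2AC18 and H2AC19 probe set were lower (3.26% of all). At 24 h 4 core probe sets were higher, with H2BC5 as the fourth (2.37% of all), and 1 core and 2 linker probe sets were lower (2.08% of all). H2AC6 is among the higher ones at both times, and its place there too was set by the filter.

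Read by direction alone, 3 of 16 core and 1 of 3 linker probe sets were above control at 8 h, where 51.1% of all measured probe sets were. The largest of these small negative differences was -0.32, of H2AC6. At 16 h the counts above control were 9 of 16 and 1 of 3 (51.4% of all), and at 24 h 10 of 16 and 1 of 3 (52.4% of all). The core counts at 16 and 24 h include H2AC6, and those at all 3 times include H2BC14. Both passed the filter only through treated arrays where they were higher than in control. The core median was -0.13, 0.11 and 0.11 at the 3 times and the linker median -0.13, -0.52 and -0.68. The core medians at 16 and 24 h had the opposite sign, -0.29 and -0.16 over 5 probe sets, with the filter at the 75th percentile, with 3 of those 5 below control at 24 h.

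**Figure D3:**
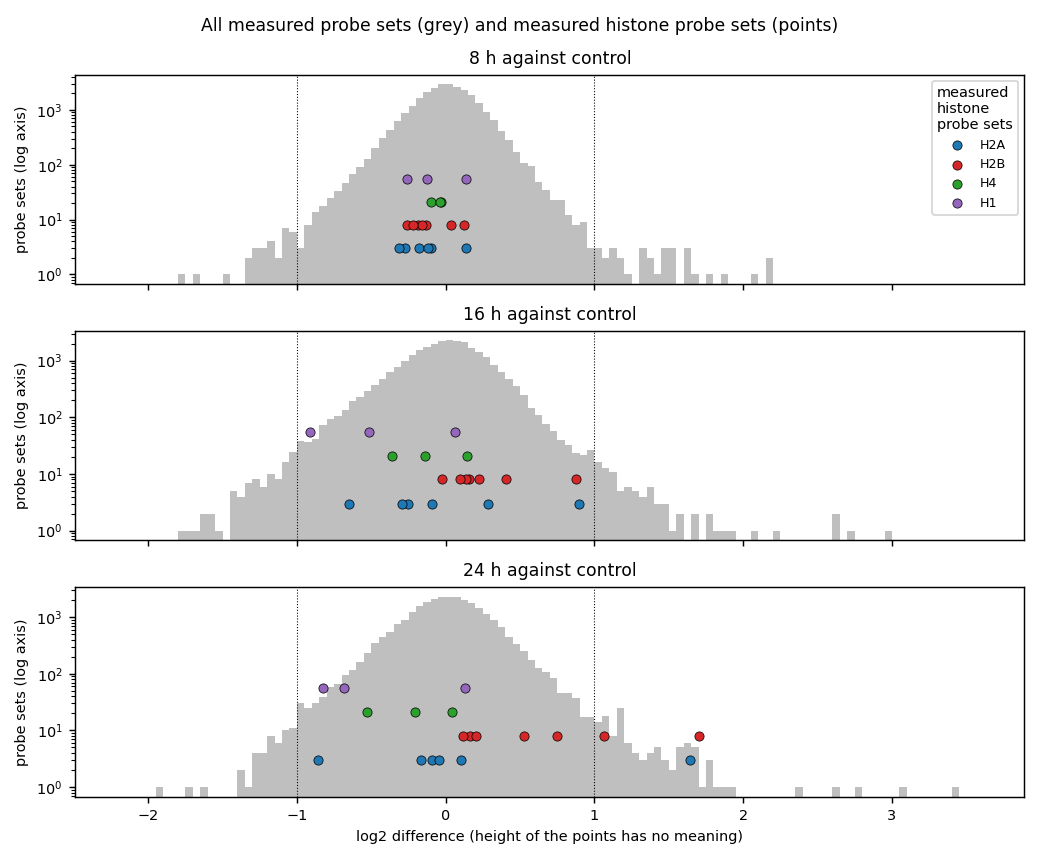
Histograms of log2 differences from control for all 27337 measured probe sets (grey, log axis) at 8, 16 and 24 h, with the measured histone probe sets drawn as points in rows by family. The histone points lie within a narrow band at 8 h, from -0.32 to 0.14, and spread from -0.86 to 1.70 at 24 h.

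The step from 8 to 16 h does not use the control array. H2BC12 (1.06) and H2AC6 (1.21) were at least 2-fold higher over it, 2 of the 16 core probe sets against 0.161% of all, or 1 of 15 without H2AC6, which those later arrays brought past the filter. All 7 measured H2B probe sets were higher at 16 than at 8 h, as were 49.6% of all measured probe sets. Over the step from 16 to 24 h none was 2-fold higher (0.0476% of all), with H2BC12 at 0.83 and H2AC6 at 0.75, while the H2B median was 0.43. H1-2 was 0.09 higher at 24 than at 16 h, so most of its difference from control was already there at 16 h.

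Of the 47 probe sets that were not measured, 8 exceeded the median of at least 1 array. H4C8 had 2 probe sets that were close to each other, one at 53.2, 41.4, 63.7 and 95.5 and the other at 68.9, 73.2, 75.7 and 122.2, with differences of 0.84 and 0.83 at 24 h, opposite to the H4 probe set 205967_at. In both only the 24 h value was above its array's median. A further probe set of the H2B group of H2BC4 and its relatives, 208523_x_at, read 70.6, 79.2, 93.9 and 142.5, which put it 1.01 above control at 24 h. H2BC21 read 80.3, 81.6, 105.1 and 111.6 (0.48 at 24 h) and H2BC9 96.1, 74.3, 78.7 and 103.1 (0.10). 208523_x_at exceeded its array's median only at 24 h, and H2BC21 only at 16 and 24 h. Both were thus picked through the arrays where they were high, as were the H4C8 probe sets.

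On the lower side, 208580_x_at, of the 14 H4 genes, read 109.75, 96.9, 84.7 and 69.5, a difference of -0.66 at 24 h. H4C11 read 103.5, 86.1, 87.4 and 76.4 (-0.44), from a probe set whose design transcript RefSeq gives to H4C12. It exceeded its array's median only in control, and 208580_x_at only in control and at 8 h, the arrays where they were high. H1-4 is given above. The remaining 39 probe sets had intensities from 12.1 to 90.8 on every array, and 16 of them were at the floor throughout. Their differences at 24 h ran from -0.51 to 0.78, with 11 above 0, 9 below and 19 at 0. All H3 probe sets are among these 39, and no direction can be read for H3.

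Some members have annotated transcripts that run well past the usual short histone gene body. In RefSeq (GRCh38.p14) the gene spans of H2BC5, H2BC4, H2BC12, H3C6 and H2BC21 are 13229, 10757, 8566, 3296 and 2224 bases, while the other core genes with a probe set of their own span at most 1000. Of the 7 probe sets of those 5 genes, 6 were above control at 24 h and 1, of H2BC4, was at the floor on all arrays, with a median of 0.48. Those 6 include the probe sets of H3C6 and H2BC21, which were not measured. The H3C6 probe sets were above the median of no array, so no direction can be read from them. Of the 34 probe sets of the 31 shorter genes, 15 were above control, 8 below and 9 at the floor throughout, and H2AC6, with a span of 519 bases, is one of them. These 34 likewise include H3 and other probe sets that were not measured. Of all 54675 probe sets, measured or not, 22821 were above control at 24 h and 19533 below. The limit of 1000 bases was chosen after the values were seen. Over measured probe sets alone, 3 of 3 probe sets of 2 longer genes were above control at 24 h. Of the shorter genes 6 of 8 were, beside 52.4% of all measured probe sets. These 6 include H4C9, at 0.04, and H2AC6 and H2BC14. The last 2 passed the filter only through treated arrays where they were higher than in control. The counts therefore give no firm comparison of direction. The medians were 0.75 for the longer and 0.13 for the shorter genes. With so few probe sets that difference was not tested.

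Genes that act on histones and their mRNAs were counted by list. The medians below are read beside those of all 12446 measured genes, which were 0.01, 0.03 and 0.02 (log2) at 8, 16 and 24 h. All 24 genes that mark S phase were below control at 16 and 24 h, where 45.7% and 47.4% of all genes were, with medians of -0.54 and -0.77. At 24 h 7 of them were at least 2-fold lower (0.193% of all genes), among them MCM5 and MCM2 of the replicative helicase (-1.30 and -1.05), CDC6 (-1.08) and GINS2 (-1.16, or -0.29 with the median over its probe sets). At 8 h 19 of the 24 were below control, where 48.3% of all genes were, with a median of -0.08. How far this list's lower level bears on the histone values was not tested.

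Genes of histone mRNA 3′ end processing stood below control at 24 h for 18 of 20 members (median -0.28), against 47.4% of all measured genes. SLBP, which binds the stem-loop, had 6507 in control and then 6502, 4787 and 4505 at 8, 16 and 24 h, so it matched control at 8 h and stood at -0.53 at 24 h. The Sm protein gene SNRPF stood at -0.53 and the cleavage factor gene CSTF2 at -0.47 at 24 h, with another probe set of NCBP1, of the cap-binding complex (-0.44), of the opposite sign. In the decay list 12 of 19 were below control at 16 h and 14 of 19 at 24 h (medians -0.10 and -0.18). The shares of all measured genes were 45.7% and 47.4%. ERI1, the exonuclease that trims the histone stem-loop, was among the lowest at 626.7, 593.5, 366.9 and 326.4 (-0.94 at 24 h), while TUT7, which adds uridines to histone mRNA, stood at 0.81 and the exonuclease gene XRN1 at 0.46. ATR, the checkpoint kinase, stood at -0.51 at 16 h.

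Among 13 genes of histone transcription 8 were below control at 16 h and 8 at 24 h (medians -0.11 and -0.14). Of all measured genes 45.7% and 47.4% were below control at these times, and no common direction is read from 13 genes. CASP8AP2, a protein of the histone locus body, had 944.4, 834.9, 422.3 and 596.8, so its lowest array was that at 16 h (-1.16, or -0.58 with the median over its probe sets). NPAT, the coactivator that cyclin E and CDK2 phosphorylate at histone genes, had 513.6, 523.3, 366.9 and 486.0, likewise lowest at 16 h. CCNE2 and CDK2 stood at -0.69 and -0.62 at 24 h, the latter at -0.16 with the median over its probe sets, and E2F1 at -0.50. None of the 19 measured histone probe sets was 0.5 or more lower at 16 h than at both 8 and 24 h.

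Histone chaperones, which carry new histones to DNA, stood below control at 24 h for 19 of 23 members (median -0.23), against 47.4% of all measured genes. NASP, which stores H3 and H4, had 3147, 2525, 1687 and 1611 (-0.97 at 24 h), and CHAF1B, of the assembly factor CAF-1, stood at -0.84. ASF1A and HIRA stood at 0.76 and 0.74 at 8 h, HIRA at 0.37 with the median over its probe sets, and near 0.2 later (0.17 and 0.18 at 24 h). Of 8 replacement histones, which are made outside S phase too, 5 were below control at 24 h, beside 47.4% of all measured genes. H2AX stood at -0.79 (-0.09 with the median over its probe sets), H1-10 at -0.68, H2AZ1 at -0.37 and H3-3A at 0.22. H1-10, a linker variant, had 2350 in control and then 1036, 1523 and 1462, so its lowest array was that at 8 h (-1.18), the only 2-fold difference in this list (0.121% of all genes were 2-fold lower at 8 h). H3-3B shared its probe sets with H3-3A and was not analysed here.

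**Figure D4:**
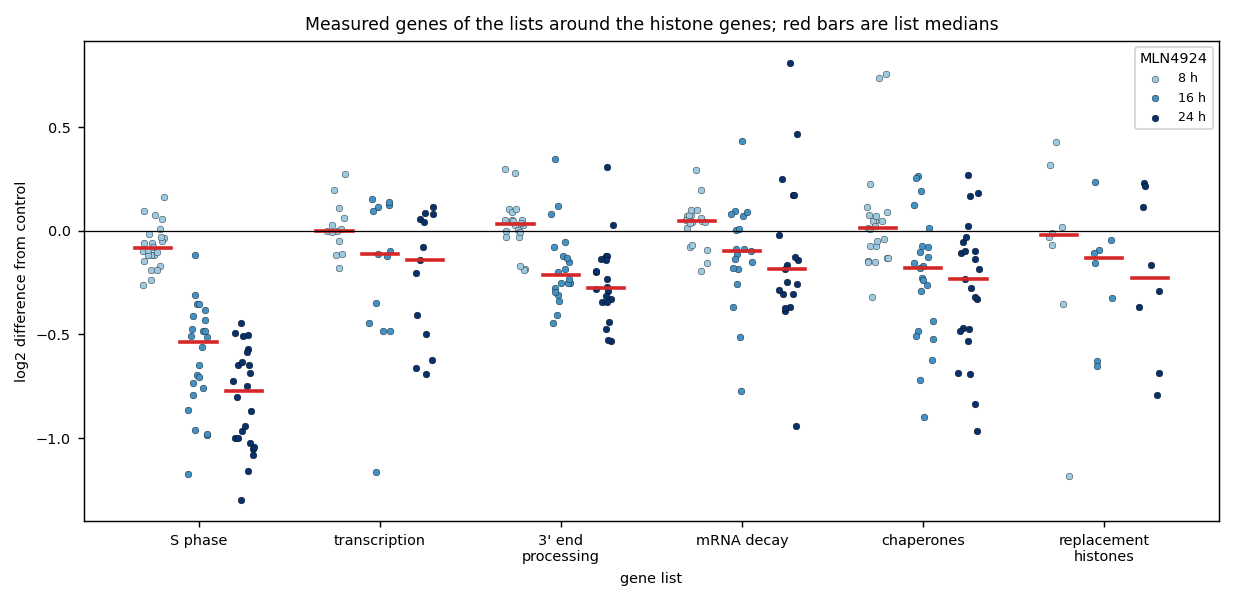
Log2 difference from control at 8, 16 and 24 h of MLN4924 for the measured genes of 6 lists, where a point is 1 gene on 1 array pair and a red bar is the list's median. The S phase list is lowest, with a median of -0.77 at 24 h, and TUT7 is the highest point at that time, at 0.81.

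The 4 arrays had median intensities from 92.2 to 95.4. All 11 plasma cell and myeloma markers, such as IRF4 and SDC1, were measured, with a summed intensity from 73349 to 82177. Of 20 listed markers of T and NK, myeloid, erythroid and stromal cells 7 were measured, and the sums of those lists ranged from 416.7 to 442.3, 531.3 to 535.0, 1255 to 1463 and 496.3 to 514.4. Fewer cells of a kind and less RNA per cell cannot be told apart in such bulk RNA.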

How the data were processed

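Total RNA of MM.1S cells was labelled as biotinylated cRNA for Affymetrix arrays, per the labels' protocols. The values deposited by the authors are intensities on a linear scale. How they were summarised, background-corrected or scaled is not given in the sources used here. The array medians differed by at most 0.048 (log2), so no normalization was added. Probe sets were named by the array annotation, matched to RefSeq by Entrez identifier (0 symbols changed), and design accessions to RefSeq transcripts. Values were floored at the 25th percentile (48.4) and put on the log2 scale, and genes of the other lists were each read from the probe set whose mean was highest. Named were all histone genes with a measured probe set, up to 8 unmeasured probe sets above the median of at least 1 array, up to 4 measured genes per list and some fixed genes. Members and lists were chosen with earlier results of these data known. Scripts used python 3.11.15, numpy 2.4.6 and pandas 2.3.3 and were tested on simulated data. The number of arrays limits the precision.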

Additional observations from a re-analysis of the deposited data

Results flagged for a closer look

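3 probe sets were below control at 8 h and above it at 24 h, each time by more than the pooled SD between probe sets of the same gene. Both differences use the same control array, and the change between the times was not tested. The share of all measured probe sets that meet this rule was not counted, so the 3 cannot be called unusual. H2AC6 passed the filter only through its 16 and 24 h arrays, where it was high. From 8 to 24 h it differed by 1.96 (log2), from an 8 h value near the floor. H2BC12 differed by 1.88 and H2BC6 by 0.74.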

How the results depend on the processing

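No paired analysis was possible because each group held 1 array, and no replicate could be left out. Of 192 recomputed counts and medians 167 kept their value within the limits set, 23 moved and 2 changed sign, and no named probe set past 2-fold changed sign. The 167 include values that were fixed in advance. No measured histone probe set was at the floor, so removing the floor could not move them. The 3 measured linker probe sets were each the only one of a single gene and not named _x_at or _s_at. Settings on the choice of probe sets therefore could not change their values. With the filter at the 75th percentile, core medians at 8, 16 and 24 h were -0.18, -0.29 and -0.16, linker medians -0.26, -0.91 and -0.83 (1 probe set), and 1 core probe set was 2-fold higher at 24 h. With no filter the core medians were 0, 0 and 0, since many probe sets lay at the floor. A floor at the 50th percentile gave 0 for core at 16 h and -0.58 for linker at 24 h. Arrays centred on their medians gave -0.17 and 0.061 for core at 8 and 24 h. Probe sets listing 1 gene gave 0.16 for core at 24 h. Without _x_at and _s_at probe sets the core median at 8 h was -0.029 and 1 was 2-fold higher at 24 h. Genes by their highest probe set gave -0.068 for core at 8 h, and genes by the median of their probe sets -0.068 at 8 h and 0.19 at 24 h. At 1.5-fold, chosen after seeing the data, 2 core probe sets were higher and 1 lower at 16 h and 1 lower at 24 h, and 1 and 2 linker probe sets were lower at 16 and 24 h. The 2 higher ones include H2AC6, whose place was set by the filter. Added normalizations moved named probe sets by at most 0.052. Detection calls were not used here, so intensities near the array medians may be background.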

Other observations

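H2BC12L, an H2B copy outside the clusters whose symbol does not meet the rule, had intensities of 123.0 in control and then 109.3, 144.7 and 242.3 at 8, 16 and 24 h. It was lowest at 8 h and highest at 24 h, 0.98 (log2) above control, and its probe set, 208579_x_at, may take up RNA of other H2B genes. The H2A pseudogene H2AC5P had 279.4, 231.1, 202.5 and 177.6, each array lower than the one before it in time, and stood at -0.65 at 24 h. The pseudogene H4C10P was at the floor on all arrays.

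Genes that make poly(A) tails showed no common direction at 24 h, with 4 of 10 above control (52.6% of all measured genes) and a median of -0.04. PAPOLA, the poly(A) polymerase, stood at 0.23, although 1 further probe set of it differed the other way at 16 h. PCF11, a termination factor, stood at -0.46 at 8 h and 0.34 at 24 h, and NUDT21, which steers the choice of the cleavage site, at -0.50 at 24 h (-0.17 with the median over its probe sets).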
